A study of Mus musculus with 8 samples.

Results

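The Notch genes described here are 3 receptors (Notch1, Notch2, Notch3), 3 ligands (Jag1, Jag2, Dll4), the DNA-binding mediator Rbpj and 3 target genes (Hes1, Hey1, Heyl). They are 10 of 19938 genes measured in mouse renal cortex. Each is read by the brightest probe set that carries only its symbol. One group was SPAK KO, mice whose Stk39 gene is disrupted, with 4 arrays. Stk39 encodes SPAK, a kinase that activates the NaCl cotransporter of the distal convoluted tubule. The other group was WT, their wild-type littermates, also with 4 arrays. All were male C57Bl6J mice aged 10 weeks that ate feed with 0.32% NaCl and 1% KCl. The stated aim was to find genes that limit salt loss by the kidney when SPAK is missing. The part of Stk39 that was disrupted is not given in the labels, and the RNA came from whole dissected cortex. In such bulk tissue, fewer cells of a type and less RNA per cell cannot be told apart.

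Notch signalling passes between touching cells. A Jagged or Delta-like ligand on one cell binds a Notch receptor on its neighbour. Cleavage by Adam10 and then by γ-secretase frees the receptor's intracellular part, which enters the nucleus. There it joins Rbpj and turns it from a repressor into an activator of genes such as Hes1, Hey1 and Heyl, which themselves encode transcriptional repressors. In the mouse kidney the pathway helps to pattern the forming nephron, and in the collecting duct it favours principal over intercalated cells. Dll4 and Notch1 act in endothelium, and Notch3 acts in the mural cells of vessels.

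Hes1 and Jag1 rose in SPAK KO cortex and Jag2 fell, each by well under 2-fold, over the 8 arrays. With agreeing arrays counted once, 1 SPAK KO sample remained, which leaves no test of genotype for any gene. The differences were then 0.46 for Hes1, 0.32 for Jag1 and -0.37 for Jag2. Jag1 and Jag2 each failed in 4 of the 8 fits that omitted an array. The other 7 genes, among them all 3 receptors, did not pass the test. A gene was called when its limma adjusted p (Benjamini-Hochberg over all 19938 genes) was under 0.05. By that rule 2 of the 10 Notch genes were higher, where 1.39% of all genes were, and 1 of 10 was lower, where 0.682% of all genes were. In either direction, 2.08% of all genes were called. The median difference of the 10 genes, SPAK KO minus WT, was 0.05 on the log2 scale, against -0.01 for all genes. With genes of a mean under 6 left out, the median of the remaining 12001 genes was 0.02.

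The arrays of a group were not equally far apart. A log2 gap above 0.4 was counted over 6297 genes with a mean above 8. It was found at 1 to 10 genes for the 6 SPAK KO pairs, at 3 genes for WT 2 with WT 3, and at 119 to 228 genes for the 5 remaining WT pairs. WT 2 and WT 3 therefore count as 1 sample in each WT mean ± SD (n = 3), and levels in SPAK KO appear as single values or a range. The fits below use all 8 arrays unless another count is named, so their p-values measure a spread that is partly that of near-identical arrays. The labels name a separate mouse for each array. The values do not show whether the near-identical arrays came from separate mice or from shared RNA, and with shared RNA the 8-array SE and p-values would be too small. Stk39 read 7.21, 6.98, 6.79 and 7.10 on SPAK KO arrays 1 to 4, against 8.36, 8.51, 8.60 and 8.11 on WT arrays 1 to 4, a difference of -1.38 ± 0.11 (SE, limma adjusted p = 5.8e-04). The 10 proximal tubule markers averaged 12.35 to 12.37 on SPAK KO arrays and 12.24 to 12.30 on WT arrays. These are defining markers of the labelled cortex. Array medians over all probe sets lay at 6.09 to 6.12 in SPAK KO and 6.13 to 6.19 in WT.

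Hes1 had the smallest p of the 10 genes and ranked 63 of 19938 by p. It encodes a basic helix-loop-helix repressor and is a classic direct target of activated Notch. Its log2 RMA values were 7.90, 7.97, 7.92 and 8.02 on SPAK KO arrays 1 to 4, against 7.38, 7.43, 7.51 and 7.62 on WT arrays 1 to 4. Every SPAK KO array read above every WT array, and the groups were 0.28 apart at their nearest values. The WT mean was 7.49 ± 0.12 (SD, n = 3). The difference was 0.47 ± 0.06 (SE, 8 arrays), or 1.38-fold with a 95% interval of 1.26 to 1.52 (limma adjusted p = 0.0053).

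The other target genes in the set did not follow this pattern of separate groups. Hey1, a related repressor used mainly in vessels and heart, read 6.07, 6.10, 6.04 and 6.08 on the SPAK KO arrays, against 6.30, 6.12, 5.96 and 5.81 on the WT arrays. Here the WT arrays spread over 0.49 and enclosed all 4 SPAK KO values, which spread over 0.05. Hey1 is dim, since array medians over all probe sets lay at 6.09 to 6.12 in SPAK KO and 6.13 to 6.19 in WT. How far Hey1 stands above background is unknown. The Hey1 difference was 0.03 ± 0.09 (limma adjusted p = 0.898), with a 95% interval of -0.18 to 0.23, and it turned negative without WT 3 or without WT 4. Heyl, the third Hey family gene and a Notch target in smooth muscle, read 7.02, 6.80, 6.99 and 6.92 on the SPAK KO arrays, against 6.87, 6.68, 6.86 and 7.05 on the WT arrays. Its groups overlapped, with WT 4 the highest of all 8 arrays. The Heyl difference was 0.07 ± 0.08 (limma adjusted p = 0.672), with a 95% interval of -0.11 to 0.25, and it ran from 0.0079 without WT 2 to 0.13 without WT 4. With agreeing arrays counted once, the differences were 0.46 ± 0.12 for Hes1, 0.02 ± 0.19 for Hey1 and 0.04 ± 0.13 for Heyl (SE), and the differences between these genes were not tested. The log2 value of Hes1 minus that of Heyl on the same array was 0.88 to 1.17 in SPAK KO and 0.52 to 0.75 in WT. For Hes1 minus Hey1 it was 1.83 to 1.94 in SPAK KO and 1.08 to 1.82 in WT, so those groups all but touched. Only the shift of such a quantity between genotypes can be read, since levels of different probe sets are not comparable.

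**Figure D1:**
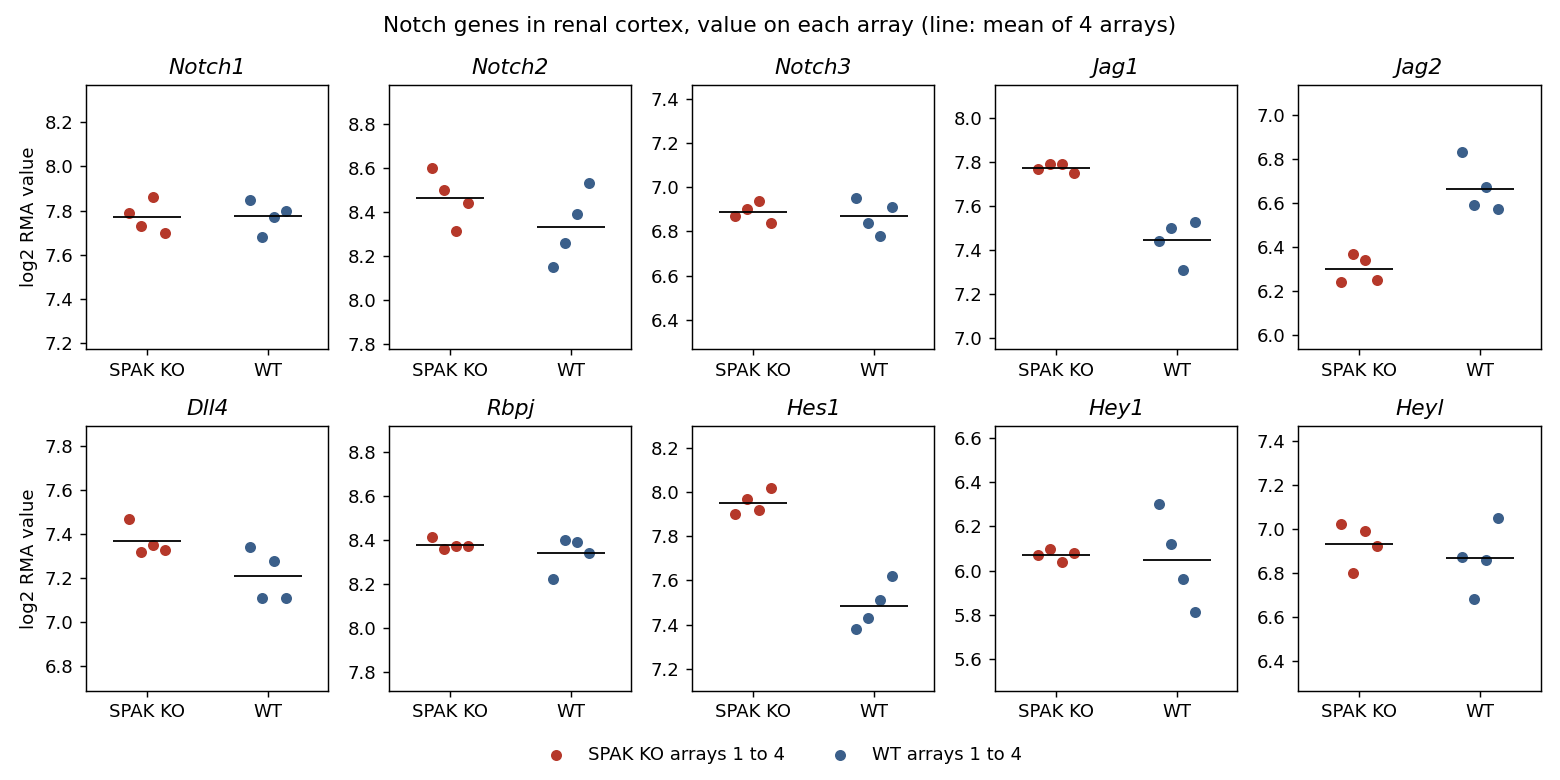
Log2 RMA value of each of the 10 Notch genes (y axis, 1.2 log2 units tall in every panel) on SPAK KO arrays 1 to 4 (red, left) and WT arrays 1 to 4 (blue, right), with a line at the mean of the 4 arrays. Hes1 and Jag1 lie wholly higher and Jag2 wholly lower in SPAK KO, and the groups overlap for the other 7 genes.

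The Jagged ligands moved in opposite directions. Jag1, a Jagged ligand needed for bile duct, heart and kidney development, read 7.77, 7.79, 7.79 and 7.75 on SPAK KO arrays 1 to 4, against 7.44, 7.50, 7.31 and 7.53 on WT arrays 1 to 4. The SPAK KO arrays lay within 0.04 of each other and 0.23 above the nearest WT array. The WT mean was 7.46 ± 0.06 (SD, n = 3), and the difference was 0.33 ± 0.06 (SE), or 1.26-fold with a 95% interval of 1.15 to 1.37 (limma adjusted p = 0.0169).

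Jag2, the second Jagged ligand, read 6.24, 6.37, 6.34 and 6.25 on SPAK KO arrays 1 to 4, against 6.83, 6.59, 6.67 and 6.57 on WT arrays 1 to 4. All SPAK KO arrays read below all WT arrays, with 0.20 between the nearest values. Jag2 is dim, since array medians over all probe sets lay at 6.09 to 6.12 in SPAK KO and 6.13 to 6.19 in WT. RMA values carry no background level, so how far Jag2 stands above background is unknown. The WT mean was 6.68 ± 0.13 (SD, n = 3). The difference of -0.36 ± 0.07 (SE) made Jag2 1.29-fold lower in SPAK KO, with a 95% interval of 1.16-fold to 1.42-fold (limma adjusted p = 0.0238). Within single arrays, Jag1 minus Jag2 was 1.41 to 1.53 in SPAK KO and 0.61 to 0.95 in WT, a shift of 0.69 on the log2 scale. That shift rests in part on the dim Jag2 probe set.

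Dll4, the Delta-like ligand of arterial and sprouting endothelium, read 7.47, 7.32, 7.35 and 7.33 on the SPAK KO arrays, against 7.34, 7.11, 7.28 and 7.11 on the WT arrays. The groups overlapped narrowly, since WT 1 read above SPAK KO 2 and SPAK KO 4. Its difference of 0.16 ± 0.07 did not pass (limma adjusted p = 0.230), and its 95% interval for a single gene, 0.01 to 0.31, lay just above 0. Counting non-overlapping groups, 2 of the 10 Notch genes were higher and 1 was lower. Over all genes 6.9% were higher without overlap and 5.71% lower.

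The promoters of the Jagged genes are shown because these ligands moved apart, and that of Rbpj because it holds the motif that Rbpj itself binds. Of the 10 genes, 7 had a promoter in the RefSeq table of build GRCm38.p6, which gives 250 bases before to 50 after a gene's start, and Hes1, Hey1 and Heyl had none there. Each is written 5′ to 3′ on the gene's strand, with matches to the Rbpj motif TGGGAA or its reverse complement TTCCCA in capitals. Jag1 lies on the minus strand at chr2:137116471-137116770, Jag2 on the minus strand at chr12:112929446-112929745 and Rbpj on the plus strand at chr5:53590096-53590395.
Jag1: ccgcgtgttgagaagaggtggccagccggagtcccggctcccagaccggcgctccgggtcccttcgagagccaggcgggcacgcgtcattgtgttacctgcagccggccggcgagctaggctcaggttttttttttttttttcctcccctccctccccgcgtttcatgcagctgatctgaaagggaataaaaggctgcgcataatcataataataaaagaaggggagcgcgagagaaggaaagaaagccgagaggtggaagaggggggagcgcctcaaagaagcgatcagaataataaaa
Jag2: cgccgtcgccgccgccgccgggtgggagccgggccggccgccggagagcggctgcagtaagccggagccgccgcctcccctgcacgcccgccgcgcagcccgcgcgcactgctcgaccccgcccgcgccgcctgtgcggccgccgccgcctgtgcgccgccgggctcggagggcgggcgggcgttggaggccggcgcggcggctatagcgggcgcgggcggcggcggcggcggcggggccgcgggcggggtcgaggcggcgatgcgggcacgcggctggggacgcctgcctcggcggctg
Rbpj: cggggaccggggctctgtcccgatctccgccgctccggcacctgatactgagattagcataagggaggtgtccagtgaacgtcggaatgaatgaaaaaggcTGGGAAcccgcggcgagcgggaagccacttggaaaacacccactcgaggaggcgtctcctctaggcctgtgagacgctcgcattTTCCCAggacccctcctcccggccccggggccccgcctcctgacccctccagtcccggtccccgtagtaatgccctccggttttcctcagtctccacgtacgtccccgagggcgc

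Neither Jagged promoter held the Rbpj motif on either strand in this window, and the Rbpj promoter printed here held it once on each strand, at bases 102 to 107 and 186 to 191. The table holds a second Rbpj promoter that starts downstream, at chr5:53590236-53590535, and only the minus-strand match lies in it, at bases 46 to 51. Across 32851 promoters of the table, 25.6% held at least 1 match. The N box, CACNAG or CTNGTG, is a sequence that Hes1 binds as a repressor, and no other Hes1 site was searched for. It had no match in the Jag1 or Jag2 window and matched in 42.5% of all promoters, with matches in those of Notch1, Notch2, Notch3 and Dll4. The windows differ in composition, with 55.7% G and C in Jag1 and 86.0% in Jag2. Such letter matches describe the sequence only.

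The receptors gave no called change. Notch1, which acts in endothelium and in developing tubules, read 7.79, 7.73, 7.86 and 7.70 on the SPAK KO arrays, against 7.85, 7.68, 7.77 and 7.80 on the WT arrays. The groups lay on top of each other, with a difference of -0.0037 ± 0.06 (limma adjusted p = 0.977) that became 0.05 with arrays centred on their median. Its 95% interval over the 8 arrays was -0.13 to 0.12.

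Notch2, the receptor that mouse nephrons need to form proximal segments, read 8.60, 8.50, 8.31 and 8.44 on the SPAK KO arrays, against 8.15, 8.26, 8.39 and 8.53 on the WT arrays. These arrays overlapped broadly, and the spread was 0.29 in SPAK KO and 0.38 in WT. The difference was 0.13 ± 0.09 (limma adjusted p = 0.459), and its 95% interval of -0.07 to 0.33 is the widest of the receptors. It ran from 0.07 to 0.20 when 1 array was omitted. Notch3, the receptor of vascular smooth muscle and pericytes, read 6.87, 6.90, 6.94 and 6.84 on the SPAK KO arrays, against 6.95, 6.84, 6.78 and 6.91 on the WT arrays. Its WT values enclosed its SPAK KO values, and the difference was 0.02 ± 0.05 (limma adjusted p = 0.895), -0.0041 with WT 2 and WT 3 averaged.

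Rbpj, on which all 4 Notch receptors of the mouse depend for their nuclear output, read 8.41, 8.36, 8.37 and 8.37 on the SPAK KO arrays, against 8.22, 8.40, 8.39 and 8.34 on the WT arrays. Apart from WT 1, all arrays fell between 8.34 and 8.41. The difference was 0.04 ± 0.05 (limma adjusted p = 0.741), with a 95% interval of -0.08 to 0.15, and it was -0.0085 after quantile normalization was repeated and -0.0031 after cyclic loess. A dimmer Rbpj probe set read 4.33, 4.67, 4.69 and 4.23 on the SPAK KO arrays, against 4.39, 4.69, 4.60 and 4.51 on the WT arrays. Mouse Rbpj has pseudogenes, so its probes could also bind their transcripts.

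**Figure D2:**
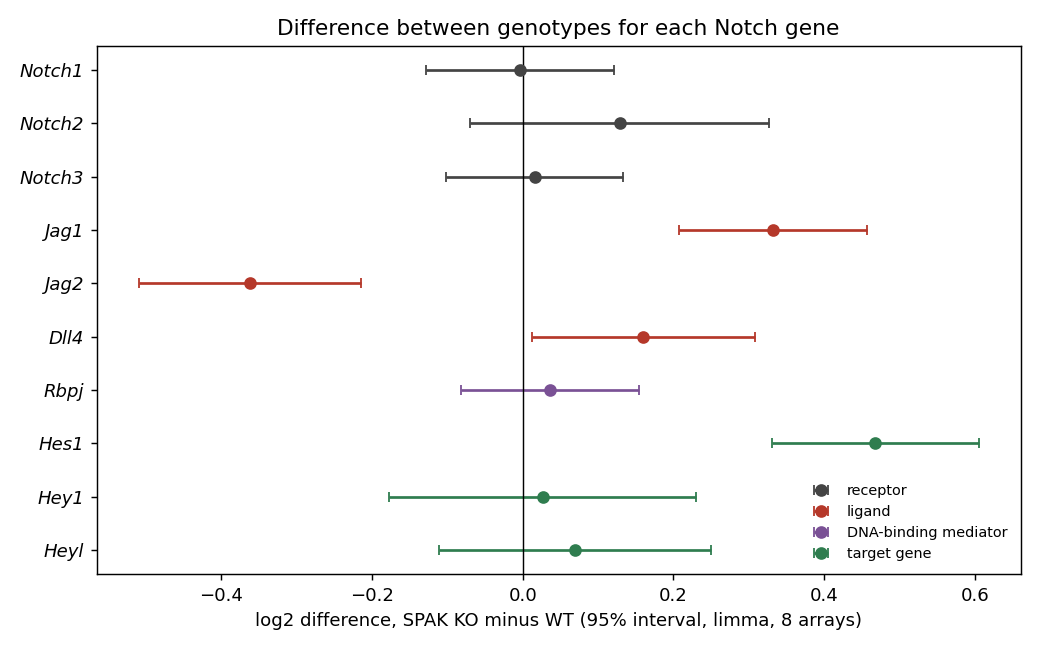
Log2 difference, SPAK KO minus WT, for each Notch gene (x axis) with its 95% interval from limma over 8 arrays, coloured by role. The intervals of Jag1, Hes1 and, narrowly, Dll4 lie above 0, that of Jag2 lies below 0, and the other 6 cross 0.

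The SPAK KO arrays were near-identical over the 6297 genes with a mean above 8. A narrower spread in SPAK KO is therefore not read as a result about Notch genes, and its cause was not tested. For all 10 Notch genes the 4 SPAK KO arrays covered a narrower range than the 4 WT arrays, with a median range of 0.12 in SPAK KO and 0.24 in WT. Over all genes the range was narrower in SPAK KO for 64.0%, with medians of 0.17 and 0.22. Rbpj and Jag1 varied least among SPAK KO arrays, by 0.04 each, and Notch2 most, by 0.29. Among WT arrays Hey1 varied most, by 0.49, and Notch1 and Notch3 least, by 0.17 each.

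How the arrays are counted bears on the calls. With WT 2 and WT 3 averaged, Hes1, Jag1 and Jag2 passed again (limma adjusted p = 0.0171, 0.0264 and 0.0476). With agreeing arrays counted once, 3 WT samples stand against 1 SPAK KO sample that is assumed to vary like WT, and limma called 0 of all genes, with a smallest adjusted p of 0.0583, while 618 genes (3.1%) had an unadjusted p under 0.05. In that fit the differences were 0.32 ± 0.11 for Jag1 and -0.37 ± 0.13 for Jag2 (SE), with Hes1 as given above. With 1 SPAK KO sample, that fit gives the size of a difference but no test of genotype. Hes1 passed whichever 1 of the 8 arrays was omitted. Jag1 passed in 4, and not without SPAK KO 1, 2, 3 or 4, where its limma adjusted p was 0.0541 to 0.0602. Jag2 also passed in 4, and not without WT 3 (0.0606) or SPAK KO 1, 3 or 4 (0.0610 to 0.0854).

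**Figure D3:**
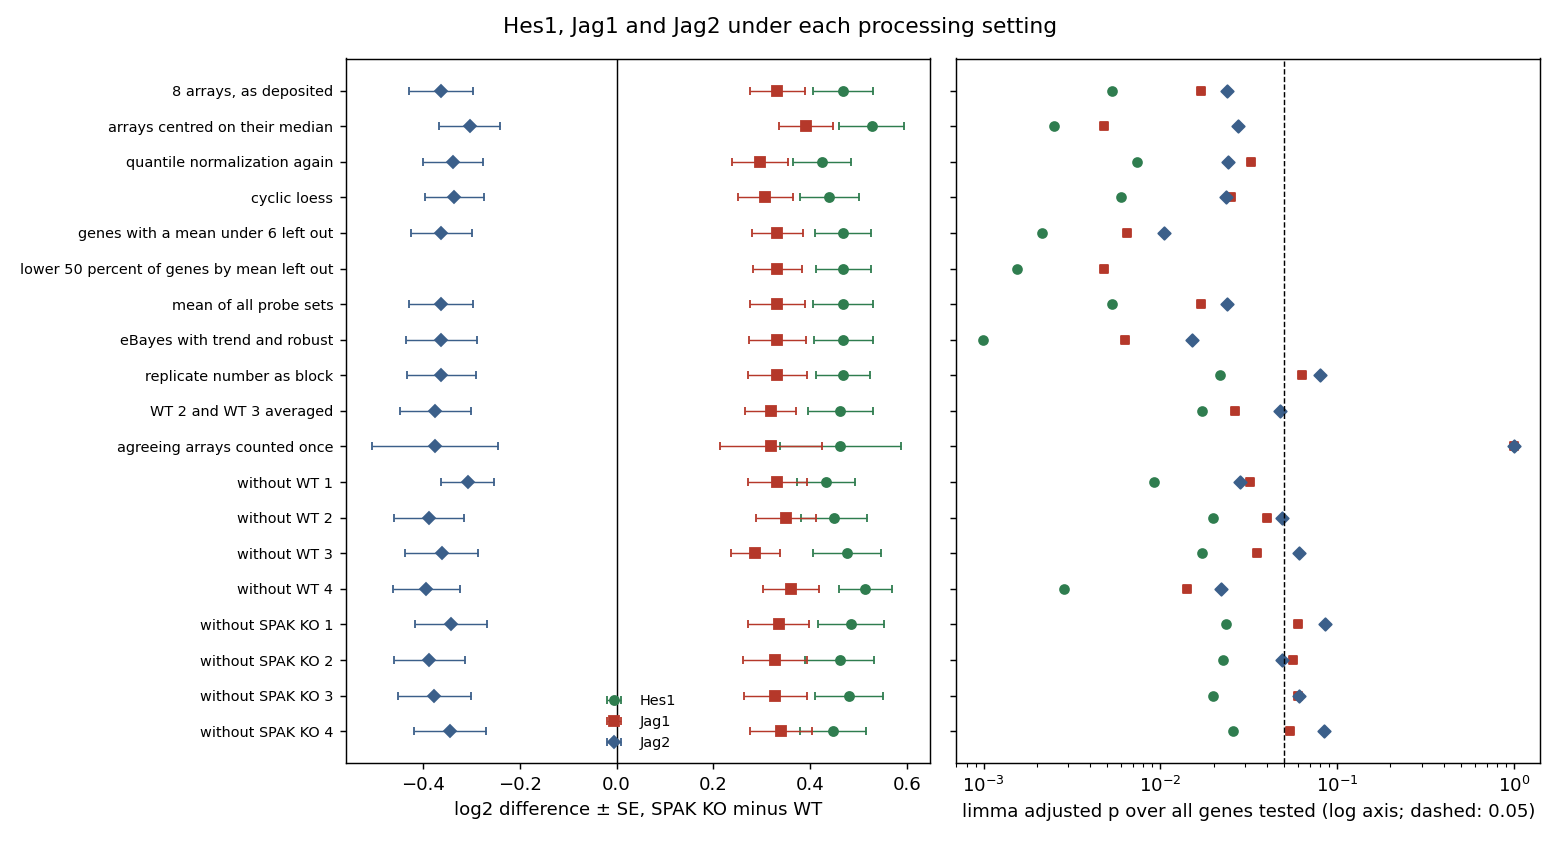
Hes1 (green), Jag1 (red) and Jag2 (blue) under each setting, with the log2 difference ± SE, SPAK KO minus WT, on the left and the limma adjusted p on a log axis on the right, the dashed line marking 0.05. The differences hardly move, between 0.42 and 0.53 for Hes1, while the adjusted p of Jag1 and Jag2 crosses the line in several settings. The fit with agreeing arrays counted once holds 1 SPAK KO sample, so its adjusted p is no test of genotype.

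Beyond the 10 genes, 57 of 60 further Notch pathway genes were measured. The others were not analysed here. The list was written with earlier results of these data known. limma called 0 of the 57 genes, and 6 had an unadjusted p under 0.05, where 19.1% of all genes did. The groups did not overlap for 2 of them, Ncstn (higher) and Hes7 (lower), where 12.6% of all genes had groups that did not overlap. The median difference was 0.01 over the 57 genes, with a range of -0.31 to 0.30.

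Among other receptors and ligands (5 genes), differences lay between -0.11 and 0.09, with the Delta-like ligand Dll1 at 0.09 ± 0.08 (limma adjusted p = 0.580). The enzymes that add sugars to Notch receptors (5 genes) lay between -0.06 and 0.10, with the fringe gene Rfng at 0.10 ± 0.06. Of 6 genes for endocytosis of ligands, the epsin gene Epn1 had the smallest p, at -0.17 ± 0.06 (limma adjusted p = 0.202). The 8 genes of receptor shedding and γ-secretase were close to level, between -0.11 and 0.08. Of these, Adam10, the protease that makes the first ligand-induced cut, gave -0.11 ± 0.05 (limma adjusted p = 0.276). Of 9 genes for turnover and inhibition of receptors, the Deltex gene Dtx4 gave -0.16 ± 0.06 (limma adjusted p = 0.220).

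None of the nuclear partners of Rbpj was called. All 8 coactivator genes had differences above 0, with a median of 0.07, and 8 of 10 corepressor genes did, also with a median of 0.07, where 9125 of 19938 genes were above 0. Brighter genes leaned upward in general. The median difference was -0.01 over all genes, 0.02 with means under 6 left out and 0.03 with the lower 50 percent left out. After repeated quantile normalization 7 of 8 coactivators and 6 of 10 corepressors were above 0, with medians of 0.03 and 0.02, and with arrays centred on their median 8 of 8 and 10 of 10 were, with medians of 0.12 and 0.13. Maml2, a Mastermind coactivator that bridges Notch and Rbpj to histone acetylation, read 7.57, 7.44, 7.27 and 7.56 on the SPAK KO arrays, against 7.06, 7.03, 7.19 and 7.34 on the WT arrays. WT 4 overlapped the SPAK KO range, and the difference of 0.30 ± 0.09 did not pass (limma adjusted p = 0.107). Tle4, a Groucho-type corepressor that Hes proteins recruit, gave 0.20 ± 0.07 (limma adjusted p = 0.180). Of 6 further Hes and Hey genes, Hes7, an oscillator of the segmenting embryo, read 6.19, 6.44, 6.39 and 6.27 on the SPAK KO arrays, against 6.80, 6.81, 6.48 and 6.45 on the WT arrays. That put Hes7 lower on every SPAK KO array, opposite to Hes1, but only just, with nearest values of 6.44 and 6.45. Its difference of -0.31 ± 0.10 did not pass (limma adjusted p = 0.125), and Hes7 is about as dim as Jag2.

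**Figure D4:**
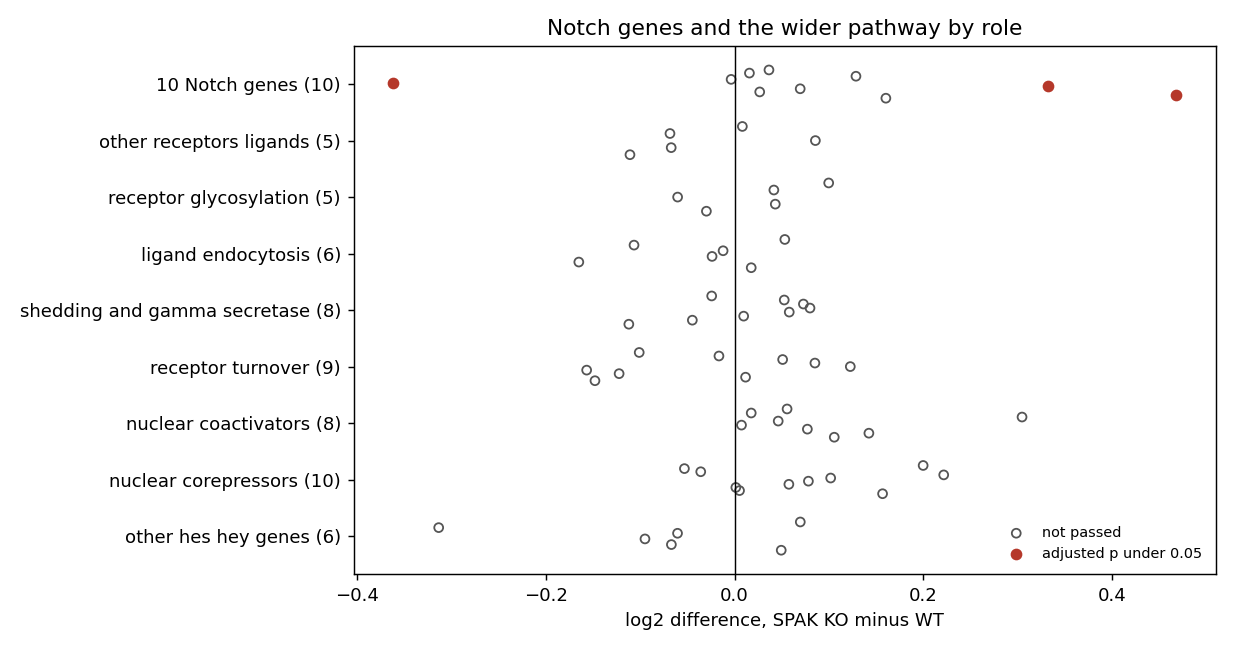
Log2 difference, SPAK KO minus WT (x axis), of the 10 Notch genes (top row) and of 57 further pathway genes by role, 1 point per gene, filled where the limma adjusted p was under 0.05. The 3 filled points are all in the top row, and the further genes lie between -0.31 and 0.30.

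Markers of several cell types moved with genotype on the same arrays. All marker lists were written with earlier results of these data known. Over all genes 1.39% were called higher and 0.682% lower. Of 12 intercalated cell markers 7 were higher and 0 lower (Atp6v0d2, Atp6v1g3 and Slc26a4 had the smallest p). Their mean level was 9.39 to 9.46 on SPAK KO arrays and 9.00 to 9.20 on WT arrays. Of 8 principal cell markers 0 were higher and 2 lower (Aqp2 and Aqp4, limma adjusted p = 0.0447 and 0.0439). Their list had mean levels of 7.92 to 7.96 in SPAK KO and 7.90 to 7.97 in WT. Aqp4 is dim, at 5.09 to 5.31 on SPAK KO arrays and 5.48 to 5.75 on WT arrays. The principal cell list went no single way, since 5 of its 8 differences were above 0, with Aqp3 at 0.23 and Gata3 at 0.21, which did not pass. Of 20 immediate early genes, which like Hes1 respond quickly to growth signals, 11 were higher and 0 lower (Fos, Egr1 and Ccn1 had the smallest p). The mean level of this list was 7.64 to 7.72 on SPAK KO arrays and 7.24 to 7.36 on WT arrays. Of 8 thick ascending limb markers 2 were higher (Cldn16, Casr), with mean levels of 10.34 to 10.38 and 10.11 to 10.18. Of 6 distal convoluted tubule markers 2 were lower (Pvalb, Trpm6), with mean levels of 9.52 to 9.56 and 9.77 to 9.98. Those 2 moved most, at -1.30 and -0.63, while the median difference of the list was -0.17. The other 4 did not pass, and 1 of the 6 differences was above 0. The part of these shifts in the Hes1, Jag1 and Jag2 results was not tested.

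Vessel markers bear on Dll4, Notch1, Notch3 and Heyl. Of 10 endothelial markers 0 were called, with a median difference of -0.05 and mean levels of 9.05 to 9.12 in SPAK KO and 9.08 to 9.13 in WT. Of 10 arterial and mural markers 1 was higher, Rgs5, a regulator of G protein signalling in pericytes, at 0.32 ± 0.07 (limma adjusted p = 0.0377). The mean level of that list was 7.44 to 7.53 on SPAK KO arrays and 7.32 to 7.42 on WT arrays. Of the other lists, 0 of 4 podocyte markers were called and 2 of 10 proximal tubule markers were higher (Aqp1, Slc3a1). Among 9 immune markers 1 was lower (Cd3e). Among 6 medulla markers 1 was lower (Aqp4, which is dim and shared with the principal cell list). Array values carry no detection floor, so no marker can be said to be absent.

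The genes whose profiles over the 8 arrays were most like those of the called Notch genes were found among about 9222 genes with a mean above 7. For Hes1 they were the amino acid transporter gene Slc7a12 (Pearson r = 0.994), Hint2 (0.987) and Zfand1 (0.983). For Jag1 they were the proton pump subunit gene Atp6v1c2 (0.989), the keratin gene Krt7 (0.981) and Tsc22d1 (0.979). For Jag2 they were Galnt14 (0.985), Kyat1 (0.981) and the tubulin gene Tubb6 (0.980). These values describe 8 arrays that share 2 genotypes and include near-identical arrays, so they carry no p. Atp6v1c2 is also among the called intercalated cell markers, at 0.44 ± 0.07.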

How the data were processed

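Total RNA from dissected cortex was hybridised to 1-colour Affymetrix arrays, 1 for each mouse that the labels name, with 6 µg RNA per sample per the labels' protocols. The deposited values are log2 expression values. The submitters' processing notes name RMA and Affymetrix Expression Console as the authors' tools. RMA subtracts background, normalizes between arrays and summarises each probe set. Versions and genome build are not given in the sources used here. Of 35556 probe sets, 21789 carried 1 symbol in the platform annotation, 1621 several and 12146 none. Only the first kind was named, and the brightest probe set stood for each of 19938 genes. The number of separate samples limits precision.

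The deposited values of all genes entered limma 3.58.1 under R 4.3.3 (functions lmFit and eBayes), with genotype as the only term over 8 arrays. The procedure was also run on simulated data whose arrays varied independently, so that run does not cover near-identical arrays. Alternatives covered normalization, dim genes, probe sets, variance moderation (statmod 1.5.0), a block for the number in the titles, agreeing arrays and each array left out. The numbers were not taken as pairs, since deviations of same-numbered arrays correlated at 0.07, 0.10, -0.07 and 0.19.

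The Notch genes and all lists were chosen with earlier results of these data known. Genes named were Stk39, the 10 Notch genes, called genes of the wider list (else the smallest p per role), up to 3 called genes per marker list, and the 3 profiles most like each called Notch gene. Ncstn was named after its values were seen.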

Additional observations from a re-analysis of the deposited data

Results flagged for a closer look

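In groups of 4 arrays, 88 groups of 44 named genes were compared by Dixon's test at the 95% level, and 2 had an array far from the rest, where chance alone gives about 1 in 20. Rbpj on SPAK KO 1 read 8.41, above the 8.36 to 8.37 of the other SPAK KO arrays, a gap of hundredths of a log2 unit. Aqp4, a marker of principal cells and medulla, read 5.75 on WT 4, above the 5.48 to 5.50 of the other WT arrays.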

How the results depend on the processing

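Of 178 values for single Notch genes over 18 alternatives, 150 kept their direction and their side of the threshold. Hes1 lost its call only with agreeing arrays counted once, a fit that gives no test of genotype. Jag1 and Jag2 also lost theirs with the number in the titles as a replicate block (limma adjusted p = 0.0634 and 0.0795). Hes1 kept its call there (0.0218). Jag1 and Jag2 lost theirs as well in the single-array omissions named above. The numbers did not qualify as pairs. The replicate block left 129 higher and 45 lower genes, with 1 Notch gene higher and 0 lower. Agreeing arrays counted once put Stk39 at -1.32, with no test of genotype, since 1 SPAK KO sample remains. Centring arrays on their median gave 673 higher and 88 lower genes (88.4% higher, against 67.1% of 278 and 136 as deposited), moved the median difference of all genes to 0.05, and kept all 3 Notch calls. Leaving out means under 6 gave 462 higher genes, leaving out the lower 50 percent of genes gave 546 and 215 with Jag2 not tested and so 0 Notch genes lower, trend and robust moderation gave 526 and 241, and averaging WT 2 and WT 3 gave 175 and 78; the cause was not tested, beyond the fewer genes or arrays by construction. Leaving out 1 array gave 106 (without SPAK KO 1) to 407 (without WT 4) higher and 50 to 218 lower genes, 1 to 2 Notch genes higher, 0 to 1 lower, and Stk39 at -1.47 to -1.30. The wider list had 0 calls in all 18 alternatives. Directions near 0 turned: Notch1 to 0.0549 with centring and, over the omissions of 1 array, lay at -0.0358 to 0.0200, above 0 without WT 1 or 4 or SPAK KO 2 or 4; Notch3 to -0.0041 with WT 2 and WT 3 averaged and with agreeing arrays counted once, and -0.0154 to 0.0424 over the omissions, below 0 without WT 3 or SPAK KO 3; Rbpj to -0.0085 with repeated quantile normalization, -0.0031 with cyclic loess, -0.0165 with the mean of all probe sets and -0.0032 to 0.0562 over the omissions, below 0 without WT 1; and Hey1 lay at -0.0536 to 0.1111 over the omissions, below 0 without WT 3 or WT 4. RMA values carry no background level, so how far the dimmer genes stand above background is unknown.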
